A study of Homo sapiens with 2 samples.

Results

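The MAPK feedback and immediate early genes described here are 10 genes that respond to the RAS-RAF-MEK-ERK cascade: the dual-specificity phosphatases DUSP1, DUSP4, DUSP5 and DUSP6, the Sprouty inhibitors SPRY2 and SPRY4, and the transcription factors EGR1, FOS, FOSL1 and ETV5. They were taken by their gene name on the array, with every probe that carries it, and are 10 of 30484 gene names and 12 of 41000 probes. Their expression was measured in PC3, an established line of prostate cancer cells grown from a metastasis, with 2 Agilent arrays that read 2 dyes and lay on 1 slide. Cy3 carried the control in both cases, PC3 cells that had received Non-T siRNA, a non-targeting duplex. Cy5 carried the knockdown, SUB1 siRNA 1 on one array and SUB1 siRNA 2 on the other. Whether the same extract of control RNA was used for both is not given in the sources used here. All cells grew in serum-containing medium, were transfected on successive days with the same duplex and were harvested 72 h after the first transfection. SUB1 encodes a transcriptional coactivator, and the arrays ask which genes differ when it is depleted.

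With 1 array per siRNA, no value of a single siRNA has a biological replicate, and there was no dye swap, so that a dye bias of a probe and a difference between the cells cannot be told apart. Values are log2 ratios of the SUB1 siRNA channel to the Non-T channel after background correction and loess normalisation within the array, so that a ratio of 0 is no difference and an absolute ratio of 1 is the 2-fold limit used in the study to call a gene changed. The median gene spot had an intensity between 105 and 128 in either channel, and no gene spot was saturated. Spot intensities are given as read, before background correction and loess. The quotient of the channels as read therefore differs from the log2 ratio, and only the ratio is adjusted for the dyes. Over 208 probes spotted 10 times, the log2 ratio had a median SD among spots of 0.078 (siRNA 1 array) and 0.074 (siRNA 2 array). This technical error within the array leaves out differences between cultures. Each member probe had 1 spot per array, so its own technical error was not measured and that of the 208 probes stands in for it. SUB1, the targeted gene, stood at -3.30 (siRNA 1) and -3.26 (siRNA 2), with all of its 4 probes lower on both arrays. The epithelial and PC3 markers KRT8, KRT18, EPCAM, CD44 and VIM were above background, and of 5 genes that mark other cell types 3 (CD3E, PECAM1 and COL1A1) had a probe above background.

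Mitogens activate receptor tyrosine kinases, RAS and then the kinases RAF, MEK and ERK. Active ERK and its relatives JNK and p38 switch on immediate early genes within minutes, without new protein synthesis, among them EGR1 and FOS. FOSL1 follows more slowly. The same signal induces its own brakes: phosphatases that remove the activating phosphates from MAP kinases, and Sprouty proteins that act between the receptor and RAF. In tumour cells the level of these brakes is widely read as a sign of how much ERK signal a cell carries.

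The upstream sequences of the genes that the results turn on are shown first, because immediate early genes are known for the short elements near their start sites. RefSeq promoter windows, from 250 bases before to 50 bases after the start site (GRCh38.p14), were at hand for 6 of the 10 genes; DUSP4, DUSP5, FOSL1 and ETV5 had no entry. DUSP1 is shown because its ratio differed most between the siRNAs, SPRY4 because it differed the other way, DUSP6 because it was lower with both, and EGR1 as an immediate early gene that was not above background. Each is printed 5′ to 3′ on the strand of the gene, and capitals mark a full cyclic AMP response element (CRE, TGACGTCA), a CArG box (the site of serum response factor) or a TATA motif (TATAAA).
DUSP1, chr5:172771146-172771445, minus strand: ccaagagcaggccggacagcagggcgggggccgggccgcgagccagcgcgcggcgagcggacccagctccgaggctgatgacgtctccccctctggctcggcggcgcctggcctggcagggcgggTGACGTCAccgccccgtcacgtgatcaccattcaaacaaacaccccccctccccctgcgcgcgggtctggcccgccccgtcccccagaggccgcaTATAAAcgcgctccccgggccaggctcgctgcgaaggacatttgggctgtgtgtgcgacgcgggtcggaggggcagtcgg
SPRY4, chr5:142324198-142324497, minus strand: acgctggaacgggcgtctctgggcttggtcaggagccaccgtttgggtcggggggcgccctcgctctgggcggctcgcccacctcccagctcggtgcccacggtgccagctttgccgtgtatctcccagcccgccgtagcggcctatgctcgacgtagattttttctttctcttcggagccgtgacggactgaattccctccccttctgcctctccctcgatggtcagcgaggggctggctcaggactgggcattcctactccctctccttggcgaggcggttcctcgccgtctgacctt
DUSP6, chr12:89352452-89352751, minus strand: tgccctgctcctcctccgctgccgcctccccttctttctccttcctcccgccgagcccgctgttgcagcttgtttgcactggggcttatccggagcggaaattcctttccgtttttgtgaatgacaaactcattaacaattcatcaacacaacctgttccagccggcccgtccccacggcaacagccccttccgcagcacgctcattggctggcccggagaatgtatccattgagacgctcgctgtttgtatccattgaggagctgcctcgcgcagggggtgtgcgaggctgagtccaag
EGR1, chr5:138465229-138465528, plus strand: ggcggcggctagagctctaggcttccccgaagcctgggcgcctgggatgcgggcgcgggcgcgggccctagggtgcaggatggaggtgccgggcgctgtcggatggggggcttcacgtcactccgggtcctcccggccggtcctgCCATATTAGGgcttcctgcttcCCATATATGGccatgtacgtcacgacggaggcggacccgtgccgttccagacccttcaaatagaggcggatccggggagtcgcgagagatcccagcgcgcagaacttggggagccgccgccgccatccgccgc

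The DUSP1 window held a full CRE that begins at position -125 from the start site and a TATA motif at -30. A full CRE, searched on both strands, occurred in 1.85% of all 35116 RefSeq promoter windows and in none of the other 5 members with a window. Its core TGACG, which lies within the full CRE, occurred in 24.6% of all windows. Among the members with a window the core was found in DUSP1, SPRY2, SPRY4, EGR1 and FOS, and DUSP6 had no match. EGR1 held 2 CArG boxes, at -105 and -83. This motif was found in 1.29% of windows and in none of the other 5 members with a window. Sequence outside the windows was not searched. TATAAA was found in DUSP1 and FOS and in 11.5% of windows. Neither the AP-1 motif TGAGTCA (4.95% of windows) nor the ETS motif CCGGAAG (10.3%) matched the window of a member. The windows printed for SPRY4 and DUSP6 therefore carry no capitals. The share of G and C was 73.3% in the DUSP1 window, 69.3% in EGR1, 65% in SPRY4 and 58.3% in DUSP6, beside a median of 58.7% over all windows. A match here describes the letters of the window and no binding was measured.

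Of the 10 genes, 8 were measured above background and EGR1 and FOS were not. Among the 8, each taken by its brightest probe, FOSL1 and the phosphatases DUSP4, DUSP5 and DUSP6 had lower signal in SUB1 siRNA-treated cells with either siRNA, DUSP1 was lower with siRNA 1 and higher with siRNA 2, SPRY4 was higher with siRNA 1 and lower with siRNA 2, SPRY2 was lower with siRNA 1 alone, and ETV5 differed by less than the technical error. FOSL1 with siRNA 2 was past the 2-fold limit and no other value was. With siRNA 1, 0 of 8 members were past the 2-fold limit in either direction, where 0.208% of the 19215 genes kept were higher and 0.609% lower. With siRNA 2, 0 of 8 were higher and 1 was lower, where 0.614% of genes were higher and 1.07% lower. The 8 genes had medians of -0.43 (siRNA 1) and -0.32 (siRNA 2) on the log2 ratio scale, beside 0.02 over all genes on each array. With siRNA 1, 6 of the 8 had a ratio below 0, as had 45.9% of all genes, and with siRNA 2 also 6, as had 46.4%. Both arrays were set against Non-T siRNA-treated cells, and where these were the same RNA the values of the arrays are not independent.

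**Figure D1:**
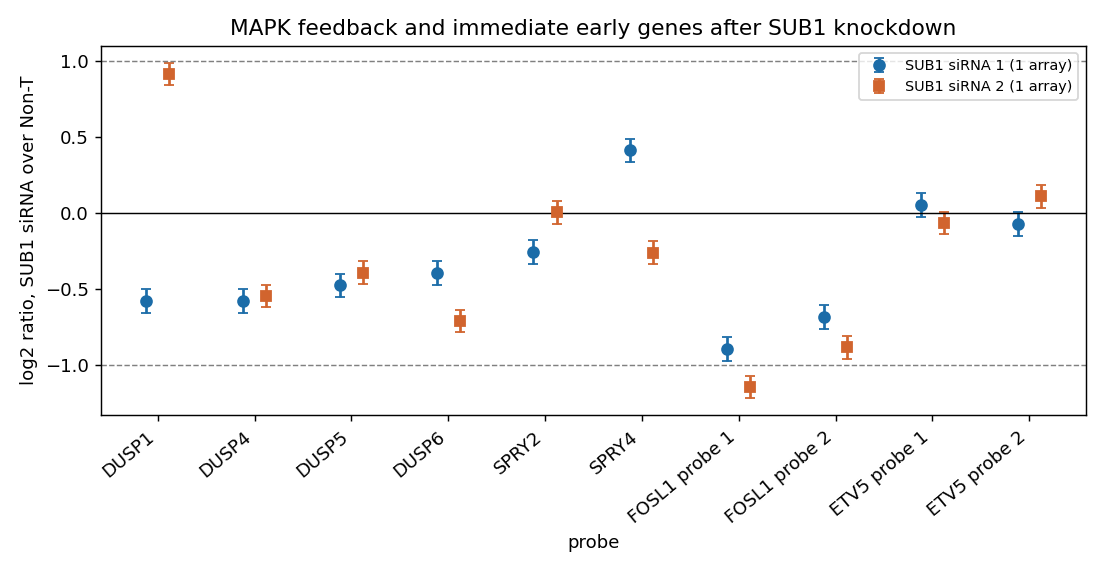
Log2 ratio (SUB1 siRNA to Non-T) for the 10 member probes above background, 1 point per array (circles siRNA 1, squares siRNA 2). Each had 1 spot per array, so the bars are the median technical SD of 208 other probes spotted 10 times (0.078 and 0.074). Dashed lines are 2-fold, and FOSL1 probe 1 and ETV5 probe 1 are the brighter ones. FOSL1 probe 1 with siRNA 2 is the lowest point at -1.14, and DUSP1 lies at -0.58 with siRNA 1 and 0.92 with siRNA 2.

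DUSP1 encodes MKP-1, a nuclear phosphatase of JNK, p38 and ERK and itself an immediate early gene. Its probe (NM_004417, hg18 chr5:172127902-172127961, minus strand) read 933 for Non-T against 736 for SUB1 siRNA 1, and 808 for Non-T against 1839 for SUB1 siRNA 2 (mean spot intensity). The knockdown channel as read was thus the dimmer one on the first array and the brighter one on the second. The log2 ratio was -0.58 with siRNA 1, or 67.0% of the Non-T signal, and 0.92 with siRNA 2, or 189%. On the siRNA 2 array 0.817% of all genes had a ratio as high, and on the siRNA 1 array 3.09% had one as low. The ratio with siRNA 2 exceeded that with siRNA 1 by 1.49, the 22nd largest such difference among 19215 genes. After scaling the arrays to each other, the Non-T level of DUSP1 was 9.84 on the first and 9.90 on the second (log2 intensity), and its SUB1 siRNA level was 9.27 and 10.81. The control levels differed by 0.05 and the knockdown levels by 1.55.

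DUSP4 encodes MKP-2, a nuclear phosphatase that ERK induces. Its spot read 2570 for Non-T against 2122 for SUB1 siRNA 1, and 2212 against 1878 for SUB1 siRNA 2. The knockdown channel as read, before normalisation, was thus the dimmer one both times. On the log2 scale the DUSP4 ratios were -0.57 (siRNA 1) and -0.54 (siRNA 2), which leaves 67.1% and 68.5% of the Non-T signal. The ratios of the arrays differed by 0.03, less than the technical SD.

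DUSP5 encodes a nuclear phosphatase specific for ERK. Its probe (NM_004419, hg18 chr10:112260890-112260949, plus strand) read 895 for Non-T against 767 for SUB1 siRNA 1, and 728 against 660 for SUB1 siRNA 2. Its ratios of -0.47 (siRNA 1) and -0.39 (siRNA 2) correspond to 72.01% and 76.3% of Non-T, and 4.96% and 9.39% of all genes had a ratio as low. DUSP6 encodes MKP-3, the cytoplasmic phosphatase of ERK. Its probe (NM_001946, hg18 chr12:88266275-88266334, minus strand) read 2675 for Non-T against 2513 for SUB1 siRNA 1, and 2168 against 1637 for SUB1 siRNA 2. The DUSP6 ratios were -0.39 (siRNA 1) and -0.71 (siRNA 2), or 76.1% and 61.2% of Non-T. The SUB1 siRNA level of DUSP6 was 0.39 lower on the siRNA 2 array, and its Non-T level 0.08 lower. DUSP4, DUSP5 and DUSP6 thus lay below 0 on both arrays by more than the technical SD, and none of them reached 2-fold.

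**Figure D2:**
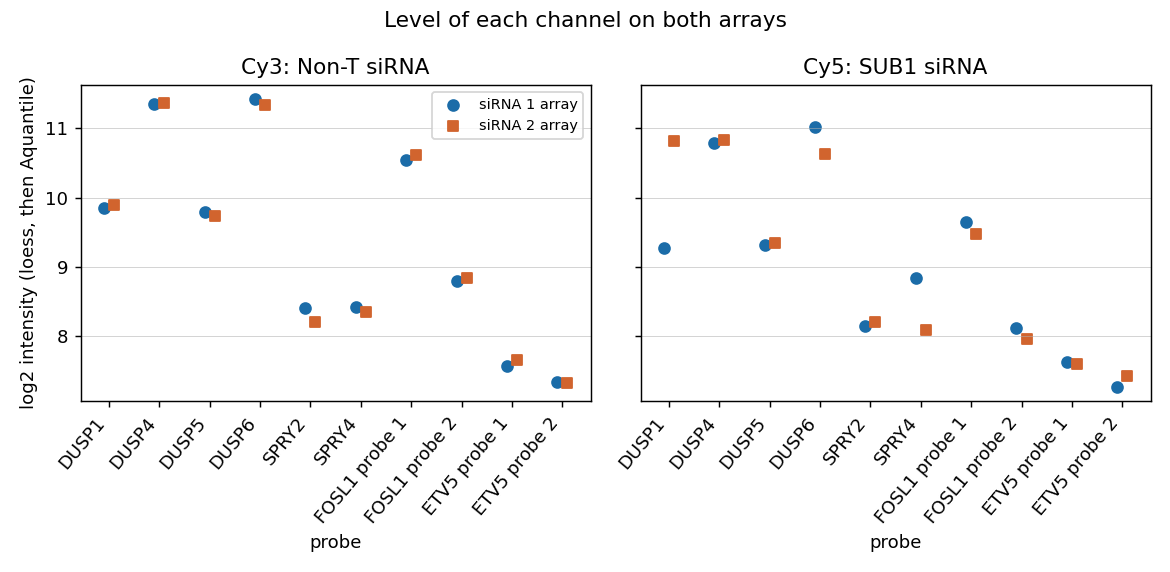
Log2 intensity of the same 10 probes in the Non-T channel (Cy3, left) and the SUB1 siRNA channel (Cy5, right), circles for the siRNA 1 array and squares for the siRNA 2 array; levels of different probes cannot be compared. In Cy3 the arrays lie within 0.20 of each other for every probe, and in Cy5 DUSP1 is 1.55 higher and SPRY4 0.75 lower on the siRNA 2 array.

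Sprouty proteins restrain signalling from receptor tyrosine kinases to RAS and RAF, and ERK induces their genes. SPRY4 (NM_030964, hg18 chr5:141670755-141670814, minus strand) read 361 for Non-T against 536 for SUB1 siRNA 1, and 294 against 270.5 for SUB1 siRNA 2. The knockdown channel as read was the brighter one with siRNA 1 and the dimmer one with siRNA 2. The SPRY4 ratio was 0.41 in the first case, or 133% of Non-T, and -0.26 in the second, or 83.6%. The Non-T levels of SPRY4 differed by 0.08 between the arrays and the SUB1 siRNA levels by 0.75, higher with siRNA 1. Its ratio was 0.67 lower with siRNA 2 than with siRNA 1, and 2.28% of genes had a difference as low, so that SPRY4 and DUSP1 stood toward opposite ends of this comparison. SPRY2 read 356 for Non-T against 329 for SUB1 siRNA 1, and 272 against 294.5 for SUB1 siRNA 2. Its log2 ratios were -0.26 (siRNA 1) and 0.01 (siRNA 2). Its Non-T level was 0.20 lower on the siRNA 2 array, the largest such difference among the probes above background, and its SUB1 siRNA level differed by 0.06. Across all genes the difference between arrays had an SD of 0.12 in Cy3 and of 0.31 in Cy5.

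FOSL1 encodes FRA-1, a FOS-family subunit of the transcription factor AP-1 that ERK induces and stabilises. Both of its probes were lower with both siRNAs. The brighter probe (NM_005438, hg18 chr11:65416674-65416733, minus strand) read 1477 for Non-T against 960 for SUB1 siRNA 1, and 1334 against 728 for SUB1 siRNA 2. That is a log2 ratio of -0.89 (1.86-fold lower) for the first duplex and of -1.14 (2.21-fold lower) for the second. The dimmer probe (hg18 chr11:65417282-65417341, minus strand) read 467 against 327 and 414 against 252. Its ratios were -0.68 and -0.88, neither past 2-fold, so that only the brighter probe on the siRNA 2 array passed the limit. FOSL1 ranked 165th from the lowest of 19215 genes with siRNA 1 and 127th with siRNA 2, so that 0.859% and 0.661% of genes were as low. Its control levels differed by 0.07 between the arrays.

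EGR1 and FOS, the immediate early genes of serum and growth factor stimulation, were not well above background in either channel on either array. Their spots had intensities between 71.4 and 102, beside a local background between 45 and 56 and a median of 61.2 to 86.5 for negative control spots. No ratio is given for them, since both channels were dim. ETV5, an ETS factor of the PEA3 group that FGF and ERK signals induce, had 2 probes. Its spots read between 156 and 224 in both channels, well above background on both arrays. The brighter probe gave 0.05 (siRNA 1) and -0.06 (siRNA 2), and the other -0.07 and 0.11. The probes thus had opposite signs on each array.

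Limma's moderated test set the mean over both siRNAs against a log2 ratio of 0. With Benjamini-Hochberg adjustment over 19215 genes, no member was past an adjusted p of 0.05. Over all genes 1 was past it (SUB1, adjusted p 0.0258), or 0.0052%. At an unadjusted p under 0.05, 4 of 8 members passed, FOSL1, DUSP4, DUSP5 and DUSP6, where 20.8% of all genes did. FOSL1 had a mean log2 ratio of -1.02 (standard error 0.11, adjusted p 0.114), DUSP4 of -0.56 (0.095, adjusted p 0.117), DUSP6 of -0.55 (0.12, adjusted p 0.138) and DUSP5 of -0.43 (0.096, adjusted p 0.142). Each of these 4 was lower on 2 of 2 arrays. DUSP1 had 0.17 (standard error 0.37, adjusted p 0.819), a mean of a lower and a higher value. The test takes the siRNAs as replicate knockdowns and leaves out the spread of the control.

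Other genes of MAP kinase signalling were taken as 4 lists. Among other brakes of this signalling, which include phosphatases of JNK and p38, 17 of 19 listed genes were measured. None was at least 2-fold changed on either array. Of all genes, 0.208% were higher and 0.609% lower with siRNA 1, and 0.614% and 1.07% with siRNA 2. Of the 17, 7 lay below 0 with siRNA 1 and 10 with siRNA 2, where 45.9% and 46.4% of all genes did. The medians of the 17 were 0.03 (siRNA 1) and -0.04 (siRNA 2), beside 0.02 over all genes. The siRNA 1 median was 0.19 with Feature Extraction's processed signals and 0.10 with median centring. In limma's test 5 of the 17 had an unadjusted p under 0.05, where 20.8% of all genes did, and 0 passed after adjustment. The largest absolute mean ratios were those of DUSP16 (0.85 with siRNA 1 and 0.72 with siRNA 2), a phosphatase of JNK and p38, of DUSP8 (0.43 and 0.82), another JNK and p38 phosphatase, and of PEA15 (0.49 and 0.64), which holds ERK in the cytoplasm. These 3 were above 0 on both arrays. ERRFI1, an inhibitor of the EGF receptor, had -0.46 and -0.57 and thus lay below 0 on both. It was named after its values were seen and outside the rule for naming genes, so its direction says nothing about the list.

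Among other immediate early genes 27 of 30 were measured, and their medians were 0.05 (siRNA 1) and 0.20 (siRNA 2). With median centring they were 0.19 and 0.40. With siRNA 1, 12 of the 27 lay below 0, where 45.9% of all genes did. None of the 27 was at least 2-fold changed with siRNA 1, where 0.208% of all genes were higher and 0.609% lower. With siRNA 2, 4 lay below 0, where 46.4% of all genes did, and 2 were at least 2-fold higher, where 0.614% of all genes were. These were JUNB, an AP-1 subunit, with 0.19 with siRNA 1 and 1.48 with siRNA 2, and ATF3, a stress-induced factor, with 0.16 and 1.09. Like DUSP1, JUNB and ATF3 lay above 0 with siRNA 2, as did 23 of the 27 genes. With siRNA 1, JUNB and ATF3 also lay above 0, whereas DUSP1 lay below. JUND, a further AP-1 subunit, had 0.59 and 0.84. CCN1, a secreted matrix protein induced by serum, had -0.80 and -0.65 and was the lowest of this list on both arrays. In limma's test 5 of the 27 had an unadjusted p under 0.05, a share below the 20.8% of all genes, and 0 passed after adjustment.

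Of the list of 20 ERK-dependent output genes all were measured, with medians of -0.20 (siRNA 1) and -0.40 (siRNA 2). Over the 9 alternatives these ranged from -0.40 (Feature Extraction's signals) to -0.08 (median centring) and from -0.57 to -0.28 in the same order. With siRNA 1, 13 lay below 0, beside 45.9% of all genes, and 2 were at least 2-fold lower, beside 0.609% of all genes. These were HBEGF (-1.19 with siRNA 1 and -0.56 with siRNA 2), a ligand of the EGF receptor, and the receptor kinase EPHA2 (-1.07 and -0.50). With siRNA 2, 16 lay below 0, beside 46.4% of all genes. CXCL8 was at least 2-fold lower with siRNA 2 (-0.47 and -1.22), as were 1.07% of all genes, and GDF15 at least 2-fold higher (0.47 and 1.76), as were 0.614%. CXCL8 is a neutrophil chemokine, and GDF15 a stress-induced cytokine. In limma's test 12 of the 20 had an unadjusted p under 0.05, beside 20.8% of all genes, and 0 passed after adjustment. The 12 were counted in either direction, and GDF15 and another of them lay above 0 on both arrays.

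Among the genes of the cascade itself 20 of 23 were measured, none of them at least 2-fold changed. Of all genes, 0.208% were higher and 0.609% lower with siRNA 1, and 0.614% and 1.07% with siRNA 2. With siRNA 1, 13 of the 20 lay below 0, where 45.9% of all genes did. With siRNA 2, 17 lay below 0, where 46.4% of all genes did. The cascade medians were -0.13 (siRNA 1) and -0.14 (siRNA 2). With median centring these were -0.04 and -0.01, and with Feature Extraction's signals -0.20 and -0.20. Among the largest absolute mean ratios were those of ARAF (-0.59 with siRNA 1 and -0.37 with siRNA 2), a RAF kinase, and of MAP2K1 (-0.87 and -0.08), which encodes MEK1. In limma's test 6 of the 20 had an unadjusted p under 0.05, where 20.8% of all genes did, and 0 passed after adjustment. The 6 were counted in either direction and were not all lower.

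**Figure D3:**
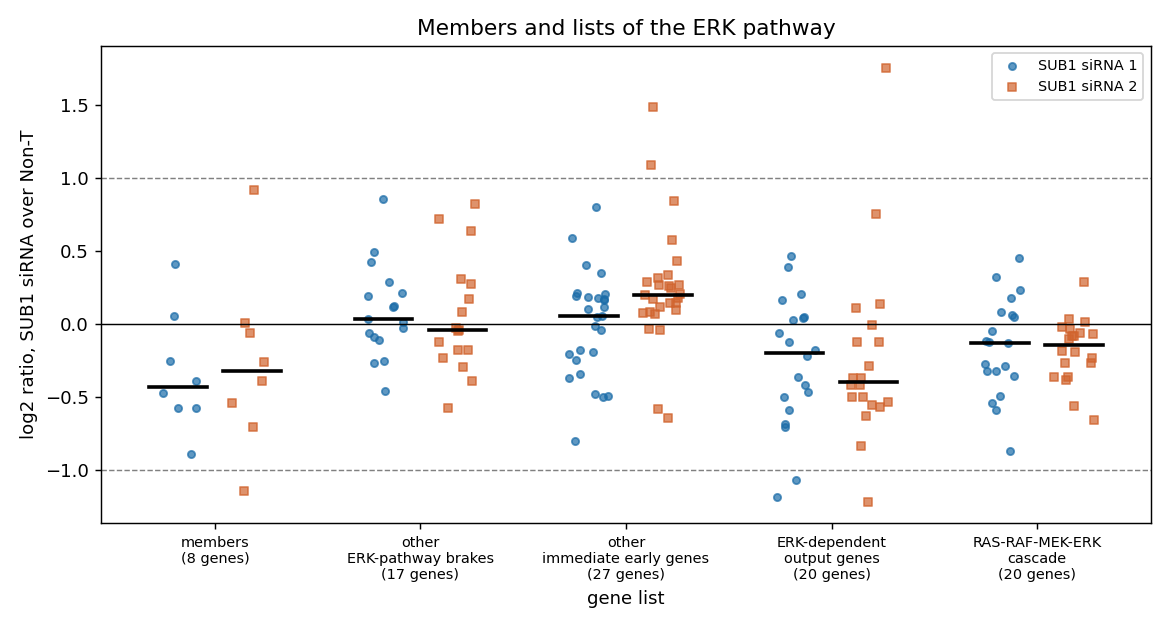
Log2 ratio (SUB1 siRNA to Non-T) for each gene above background (1 point per gene and array, spread sideways for legibility) among the members and the 4 pathway lists; black bars are medians and dashed lines are 2-fold. The members have medians of -0.43 and -0.32, the ERK-dependent output genes -0.20 and -0.40, and the other immediate early genes 0.05 and 0.20.

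Under 9 other ways of processing the same spots 6 of the 8 members kept their sign on both arrays. Some of the 9 could not change the ratio of any of the 8: keeping outlier spots, keeping dim probes and filtering on both channels. Averaging the probes of a gene could change only FOSL1 and ETV5. The 2-fold calls of the members changed under median centring alone. DUSP1 ranged from -0.70 to -0.37 (siRNA 1) and from 0.86 to 1.15 (siRNA 2), and FOSL1 from -0.93 to -0.67 and from -1.20 to -0.91. Median centring of the arrays, used instead of loess, put the median of all genes at 0.13 (siRNA 1) and 0.12 (siRNA 2), up from 0.02. FOSL1 with siRNA 2 was then -0.91, short of 2-fold, and DUSP1 with siRNA 2 was 1.15, past it. Relative to the median of all genes on that array they were -1.03 and 1.03. SPRY4 lay above 0 with siRNA 1 and below with siRNA 2 under all 9 alternatives. DUSP4, DUSP5, DUSP6 and FOSL1 lay below 0 on both arrays under all 9, those that could not move them included. Median centring brought several of these closer to 0, DUSP6 with siRNA 1 to -0.14, DUSP5 to -0.26 (siRNA 1) and -0.18 (siRNA 2), and DUSP4 to -0.33 and -0.29. In limma's test under that centring DUSP5 and DUSP6 were no longer under an unadjusted p of 0.05 (adjusted p 0.217 and 0.198), and DUSP4 and FOSL1 were. The sign changed for ETV5 under 2 alternatives with siRNA 1 and 3 with siRNA 2, and for SPRY2 with siRNA 2 under 2.

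**Figure D4:**
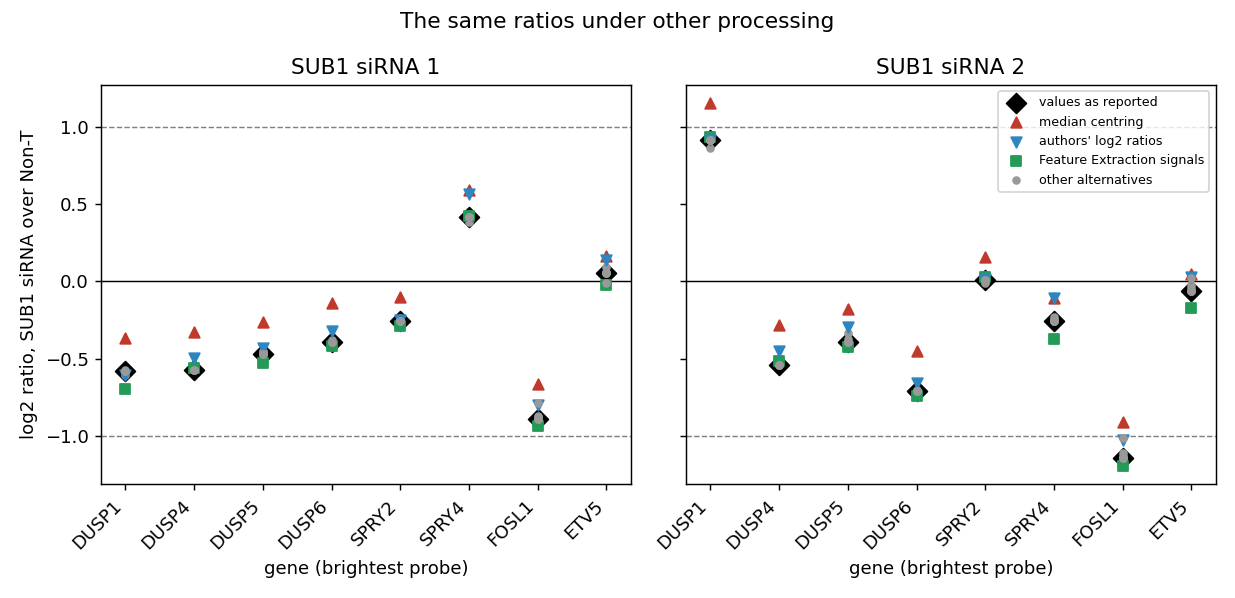
Log2 ratio (SUB1 siRNA to Non-T) of the 8 member genes (brightest probe, or the mean of the probes in 1 of the other alternatives) with siRNA 1 (left) and siRNA 2 (right), with diamonds for the values reported here and other symbols for 9 alternatives; dashed lines are 2-fold. Median centring shifts these 8 genes upward on both arrays, which takes FOSL1 with siRNA 2 to -0.91 and DUSP1 with siRNA 2 to 1.15.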

How the data were processed

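Dual-colour Agilent arrays of PC3 cells were analysed, 1 with SUB1 siRNA 1 and 1 with SUB1 siRNA 2 in Cy5, each with Non-T siRNA in Cy3. The authors deposited the output of Agilent Feature Extraction, which gives for every spot an intensity per channel, that of the local background and one processed by the software. They also deposited a table of log2 ratios, for which the paper names agilp and loess. Its values had a Pearson correlation across spots of 0.958 (siRNA 1) and 0.970 (siRNA 2) with Cy5 over Cy3 ratios computed here from median signals after loess, with a slope of 1.01 and 1.02, which settles direction and scale. The software's own ratio per spot and its p-value, also in the files, were not used. The column medians of the table were -0.005 and -0.007.

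Here limma 3.58.1 (R 4.3.3) was used. From mean signals and median local background, normexp with offset 50 gave corrected signals, control spots were dropped, and ratios were put through loess with span 0.3. Outlier spots were left out (112 and 100), and spots of a probe averaged. Probes with at least 0.5 of their spots well above background in a channel on both arrays were kept (25672 of 41000), and the brightest probe stood for each of 19215 genes. Channel levels were scaled between arrays with Aquantile. Probe coordinates are those of the files (hg18); whether a probe lies in coding or untranslated sequence was not determined here. Changed means an absolute log2 ratio of at least 1 on an array, the rule of the paper's methods, which used no test for the microarray. The mean of both siRNAs was tested with limma (intercept-only lmFit and eBayes, two-sided, Benjamini-Hochberg over all genes). The number of arrays limits the precision. The methods were tested on simulated data.

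The members, the pathway lists and the rule for naming genes were chosen with earlier results of these data known. All members and probes are named, SUB1, and of each list the genes past 2-fold on either array and the 3 with the largest absolute mean ratio. ERRFI1 was named outside this rule. Some list genes and markers chosen this way are not reported here. Alternatives were other background corrections, normalisations, probe filters, priors of the test, and the authors' ratios.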

Additional observations from a re-analysis of the deposited data

Results flagged for a closer look

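DUSP1 and SPRY4 had opposite signs on the arrays, each ratio being larger than the technical SD. The log2 ratio of DUSP1 with siRNA 2 minus that with siRNA 1 was 1.49 (-0.58 with siRNA 1 and 0.92 with siRNA 2), and that of SPRY4 was -0.67 (0.41 and -0.26). With 1 array per siRNA these differences were not tested. The difference ranged from 1.49 to 1.63 for DUSP1 and from -0.79 to -0.65 for SPRY4 under the 4 alternatives in which it was recomputed. The duplex, the culture and the array cannot be told apart in this design.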

How the results depend on the processing

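Of 144 comparisons of a member's ratio on 1 array with an alternative, 112 moved by less than the technical SD. Many of the 112 could not have moved: all 16 for each outlier or probe-filter alternative, and single-probe genes under averaging. Among alternatives able to move every member, 16 of 16 moved less without background correction and 16 from median spot signals. The number was 12 with Feature Extraction's signals, 7 with the authors' ratios and 0 under median centring. Of the 32 that moved more, 16 came from centring each array on its median in place of loess. Under that centring the member median was -0.20 with siRNA 1 and -0.14 with siRNA 2, 1 member (DUSP1) was at least 2-fold higher with siRNA 2 and 0 were lower, and SPRY2 had a mean over both siRNAs of 0.028. The member median with siRNA 2 was -0.20 with the authors' log2 ratios. Without a filter on dim probes, which brings in EGR1 and FOS, the medians were -0.32 and -0.16. ETV5, with a mean of -0.005, was above 0 without background correction (0.035), from median spot signals (0.0083), under median centring (0.10), in the authors' ratios (0.084) and as the mean of its probes (0.0073). No member was past an adjusted p of 0.05 in limma under any of 11 alternatives, the lowest being 0.059 for FOSL1 (highest 0.176), and 4 members had an unadjusted p under 0.05 in each except median centring, with 2 (DUSP4 and FOSL1). The 1 gene past the adjusted threshold was lost under 5 of the 11. The genes changed at least 2-fold, 40 higher and 117 lower with siRNA 1 and 118 and 205 with siRNA 2, were 138 and 56, and 265 and 101, with median centring, and 780 and 298, and 995 and 474, with Feature Extraction's processed signals. The share of higher genes went from 25.5% and 36.5% to 71.1% and 72.4%, and to 72.4% and 67.7%; with the authors' ratios it was 36.7% and 47.4%. The cause was not tested. The test of both siRNAs could not be run with 1 array left out. Each log2 ratio already pairs knockdown with control on 1 array. EGR1 and FOS are limited by signal over background.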
